A study of Homo sapiens with 24 samples.

Results

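The proteasome genes described here are the protein-coding genes whose symbols start with PSMA, PSMB, PSMC, PSMD, PSME, PSMF or PSMG, together with POMP. This rule found 51 of the 39321 genes in the count table. Of these members, 5 form the immunoproteasome set (PSMB8, PSMB9, PSMB10, PSME1 and PSME2) and 46 are the other members. PSMC3IP and PSME3IP1 are among the 46 through their symbols only and are not subunits.

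The libraries come from poly(A) RNA of A498 and 786-O, both established cell lines from clear cell renal cell carcinoma. The series holds 24 libraries, which the labels divide into 12 per line and, within a line, into 4 groups of 3 replicates. Total counts per library ranged from 19256316 to 30350461.

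All cells were transfected with 20 nM siRNA for 24 hours. The Cnsi groups received a pool of non-targeting siRNA and the PD-L1si groups a pool against CD274, the gene for PD-L1. The groups named Cnsi IFNγ and PD-L1si IFNγ then received interferon gamma (IFNγ) at 50 ng/mL for another 24 hours. The series record speaks of a knockout, while the protocols describe transient siRNA. A luciferase-expressing derivative of each line, made with a lentivirus, is described for co-culture with T cells, while the account of the RNA names A498 and 786-O only. The labels do not say whether replicates were separate cultures, so p-values measure only the spread between these libraries.

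The proteasome is the protease complex that degrades ubiquitin-tagged proteins: a barrel of alpha and beta rings holds the catalytic sites, and a regulatory cap unfolds and feeds in the substrate. Cells exposed to IFNγ make alternative catalytic beta subunits and a further activator ring, and the resulting immunoproteasome cuts proteins into peptides suited to loading on MHC class I. Renal carcinoma cells present such peptides to T cells, and PD-L1 on the same cells restrains those T cells.

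Levels are given as CPM, the counts of a gene per 1000000 counts of its library, with library sizes scaled by edgeR's trimmed mean of M values (TMM). Differences are log2 fold changes from edgeR's quasi-likelihood test over all genes that passed a minimum of 10 counts summed over a group. The standard error after each of them was derived as the size of the log2 fold change divided by the square root of the test's F statistic. A gene was called higher or lower at a Benjamini-Hochberg adjusted p under 0.05 and a log2 fold change over 0.5 in size. Across 24 pairs of replicates the chi-square per degree of freedom ran from 1.628 to 24.3, so in no pair did the spread lie within sampling noise. In bulk RNA, fewer cells of a type and less RNA per cell cannot be told apart.

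CD274, the siRNA target, was measured in every library. Libraries labelled A498 had 3.99, 5.49 and 5.74 CPM of it in Cnsi and 0.810, 1.01 and 0.926 CPM in PD-L1si. Under IFNγ the same line gave 191, 199 and 191 CPM with Cnsi and 26.9, 28.5 and 27.7 CPM with PD-L1si. The 4 groups did not overlap. Libraries labelled 786-O had CD274 at 3.87, 4.18 and 4.18 CPM in Cnsi, 1.46, 1.21 and 1.90 CPM in PD-L1si, 55.7, 59.6 and 65.8 CPM in Cnsi IFNγ, and 32.7, 30.8 and 30.6 CPM in PD-L1si IFNγ. Here too no groups overlapped. PD-L1si lowered CD274 by a log2 fold change of -2.47 ± 0.16 without IFNγ (adjusted p 6.46e-15) and of -2.81 ± 0.05 under IFNγ (adjusted p 1.60e-29) in the libraries labelled A498. For 786-O these differences were -1.42 ± 0.14 (adjusted p 9.68e-08) and -0.94 ± 0.07 (adjusted p 6.72e-10). CD274 under IFNγ with PD-L1si remained above its level in Cnsi without IFNγ in all libraries of both lines.

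Cell type markers were checked in each library. All 7 markers of renal epithelium and clear cell carcinoma were in the table, with a summed level of 3724 to 5465 CPM in the libraries labelled A498 and 3690 to 6405 CPM in those labelled 786-O. VIM was the most abundant of them except in 1 library, where KRT8 was, and PAX2 was listed at 0 in all libraries labelled 786-O. ITGAM, a leukocyte marker, was at 0.04211 to 0.5814 CPM with the A498 label. With the 786-O label it was at 4.796, 5.97 and 4.869 CPM in Cnsi, 11.25, 10.62 and 11.43 CPM in Cnsi IFNγ, 4.127, 3.964 and 4.492 CPM in PD-L1si, and 12.2, 11.48 and 11.72 CPM in PD-L1si IFNγ. The leukocyte markers PTPRC and LYZ were at or near 0 in all libraries. The 3 endothelial markers summed to at most 0.0399 CPM with the A498 label and to between 0.107 and 1.21 CPM with the 786-O label, nearly all PECAM1, with CDH5 and VWF at or near 0. The sum of the renal markers, mostly VIM and KRT8, hides single genes that moved apart with IFNγ. In Cnsi of 786-O KRT8 (0.79), KRT18 (0.69) and VIM (0.68) were called higher and CA9 (-1.08) lower, and in PD-L1si KRT8 (0.60) higher and CA9 (-1.12) lower, as log2 fold changes. In Cnsi of A498 NDUFA4L2 (0.73) and KRT18 (0.60) were called higher, and in PD-L1si NDUFA4L2 (1.84) higher and PAX8 (-0.71) and CA9 (-0.54) lower. ITGAM and PECAM1 were called higher with IFNγ in both comparisons of 786-O. With PD-L1si against Cnsi in A498, CA9 (1.34) was called higher and NDUFA4L2 (-1.17) lower without IFNγ, and PAX8 (-0.77) lower under it. CA9 and NDUFA4L2 had low counts in A498, which limits their values there. Without IFNγ CA9 had 19, 19 and 17 counts in Cnsi and 63, 46 and 40 in PD-L1si. NDUFA4L2 had 46, 50 and 61 counts in Cnsi and 27, 28 and 19 in PD-L1si. In 786-O CA9 was called higher without IFNγ (0.74) and under it (0.70). Some of these calls depend on the processing. With library totals as the only scaling KRT18 lost its IFNγ call in Cnsi of A498, where PAX8 (-0.51) was called lower. KRT8 (0.46) lost its IFNγ call in PD-L1si of 786-O, and CA9 (0.69) was called higher with PD-L1si under IFNγ in A498. DESeq2 did not call CA9 with IFNγ in PD-L1si of A498. The part of these markers in the proteasome values was not tested.

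Not every member could be tested. In all, 49 of 51 members passed the count filter with the A498 label, including all 5 immunoproteasome genes. PSMA8, an alpha subunit of the testis, had 0 counts and PSMB11, the catalytic subunit of the thymus, 5 counts over those 12 libraries. Of the same 51, 43 members passed with the 786-O label, 4 of them immunoproteasome genes. PSMA1, PSMB8, PSMB11, PSMC3IP, PSMD4, PSMD6 and PSMG4 were listed at 0 in all 12 libraries labelled 786-O, and PSMA8 had 6 counts there. The same table lists 1475 genes at 0 in all libraries labelled 786-O that have over 1000 counts in those labelled A498, against 35 genes the other way round. ACTB, TAP2 and TAPBP, named after their values were seen, are among the 1475. PSMB8 and the 5 other members of that kind are therefore treated as not measured with the 786-O label.

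The immunoproteasome genes have known positions on GRCh38. PSMB9 (ENSG00000240065.8, chr6:32844136-32859851, plus strand) and PSMB8 (ENSG00000204264.11, chr6:32840717-32844679, minus strand) lie beside the peptide transporter genes of the MHC region. PSMB10 (ENSG00000205220.12) is at chr16:67934506-67936864 on the minus strand. PSME1 (ENSG00000092010.15, chr14:24136163-24138967, plus strand) and PSME2 (ENSG00000100911.16, chr14:24143362-24147570, minus strand) are neighbours.

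Promoter windows from RefSeq (GRCh38.p14), each with 250 bases before and 50 after a start, were available for 45 of the 51 members. PSMA7, PSMB1, PSMB6, PSMB7, PSMD4 and PSMG3 had none. Both strands were searched for GAAANNGAAA, a core of the interferon-stimulated response element. It occurred in 3.57% of all 35116 windows, in windows of 4 of the 5 immunoproteasome genes (PSMB8, PSMB10, PSME1 and PSME2), and in windows of 3 of the 40 other members with a window (PSMA4, PSMB4 and PSMG4). At all 4 immunoproteasome sites the letters read GAAAGCGAAA on either strand, a case of the same pattern noticed after the search, which is in 35 windows (0.0997%). Among the other members only PSMG4 has it. The immunoproteasome sites are shown because these genes were called higher with IFNγ wherever they were tested, and the sites of PSMA4, PSMB4 and PSMG4 because they are the other members with a match. Each is given 5′ to 3′ on the gene's own strand, with capitals for the matched letters or their reverse complement. Their locations are chr6:32844032-32844061 (minus strand, PSMB8), chr16:67936852-67936881 (minus, PSMB10), chr14:24136189-24136218 (plus, PSME1), chr14:24146619-24146648 (minus, PSME2), chr15:78540155-78540184 (plus, PSMA4), chr1:151399495-151399524 (plus, PSMB4) and chr6:3258904-3258933 (plus, PSMG4).
PSMB8: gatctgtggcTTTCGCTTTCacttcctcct
PSMB10: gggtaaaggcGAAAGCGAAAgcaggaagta
PSME1: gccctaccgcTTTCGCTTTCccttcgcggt
PSME2: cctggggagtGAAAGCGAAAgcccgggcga
PSMA4: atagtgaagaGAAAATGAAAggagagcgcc
PSMB4: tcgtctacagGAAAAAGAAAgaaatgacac
PSMG4: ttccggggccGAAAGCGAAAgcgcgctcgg

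The matches begin at position -4 from the start in PSMB8, -21 in PSMB10, 6 in PSME1, -28 in PSME2, -240 in PSMA4, -68 in PSMB4 and -33 in PSMG4. A match is a run of letters and was not tested for binding. Another pattern, TTCNNNGAA, a core of the gamma-activated sequence, was in 7.66% of windows, in those of PSMB8 among the immunoproteasome genes and of 7 other members. The letters TGACNNNGC, a core of the antioxidant response element, were in 13.3% of windows, in those of 3 immunoproteasome genes and of 12 other members. Neither overlapped a GAAANNGAAA match in a member's window.

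PSMB9 is transcribed away from TAP1, which encodes a subunit of the peptide transporter, and their RefSeq starts are 488 bases apart. The PSMB9 window held no GAAANNGAAA or TTCNNNGAA. The TAP1 window held a pair of overlapping GAAANNGAAA matches, the nearer of them 354 bases before the PSMB9 start. Both stretches are shown because the genes share the interval: the TAP1 site at chr6:32853816-32853845 on the minus strand, with the overlapping matches in capitals, and the 140 bases before the PSMB9 start at chr6:32854052-32854191 on the plus strand, without a match and so without capitals.
TAP1: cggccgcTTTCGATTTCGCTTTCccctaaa
PSMB9: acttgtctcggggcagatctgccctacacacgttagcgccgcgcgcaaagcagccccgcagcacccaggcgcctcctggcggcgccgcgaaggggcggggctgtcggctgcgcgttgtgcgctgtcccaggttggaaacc

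PSMB9 encodes the immune subunit that takes the place of PSMB6 in the beta ring. With the A498 label it stood at 18.7, 18.7 and 20.0 CPM in Cnsi, 397, 379 and 401 CPM in Cnsi IFNγ, 8.42, 9.10 and 7.76 CPM in PD-L1si, and 362, 307 and 339 CPM in PD-L1si IFNγ. All 4 groups were apart, with PD-L1si the lowest and Cnsi IFNγ the highest. Its levels with the 786-O label were 39.7, 39.9 and 40.4 CPM in Cnsi, 362, 347 and 342 CPM in Cnsi IFNγ, 36.4, 36.3 and 34.1 CPM in PD-L1si, and 328, 322 and 326 CPM in PD-L1si IFNγ. These groups were apart too and fell in the same order. IFNγ raised PSMB9 by a log2 fold change of 4.36 ± 0.06 with Cnsi (adjusted p 1.87e-36) and of 5.32 ± 0.07 with PD-L1si (adjusted p 1.10e-37) in the libraries labelled A498. For 786-O the rise was 3.13 ± 0.05 with Cnsi (adjusted p 6.77e-26) and 3.19 ± 0.05 with PD-L1si (adjusted p 5.75e-26).

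PSMB10 encodes the immune counterpart of PSMB7. Its levels with the A498 label were 9.45, 9.74 and 11.2 CPM in Cnsi, 101, 104 and 104 CPM in Cnsi IFNγ, 7.08, 7.12 and 7.80 CPM in PD-L1si, and 94.6, 93.2 and 90.7 CPM in PD-L1si IFNγ. No groups overlapped. The 786-O libraries gave 17.9, 16.9 and 18.1 CPM in Cnsi, 154, 170.5 and 171 CPM in Cnsi IFNγ, 17.5, 19.0 and 20.0 CPM in PD-L1si, and 175, 176 and 179.7 CPM in PD-L1si IFNγ. Here the groups without IFNγ overlapped, and every library with IFNγ was above every library without it. In the libraries labelled A498, IFNγ raised PSMB10 by 3.34 ± 0.06 with Cnsi (adjusted p 5.47e-33) and by 3.66 ± 0.06 with PD-L1si (adjusted p 1.64e-33) on the log2 scale. For 786-O the rises were 3.23 ± 0.06 (adjusted p 2.77e-24) and 3.23 ± 0.06 (adjusted p 2.23e-24). The annotation gives 39.4% of PSMB10 exon bases to another gene on the same strand as well, which limits its count.

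PSMB8 encodes the immune counterpart of PSMB5. With the A498 label it stood at 76.2, 78.2 and 76.3 CPM in Cnsi, 394, 393 and 379 CPM in Cnsi IFNγ, 63.5, 65.3 and 66.0 CPM in PD-L1si, and 341, 357 and 358 CPM in PD-L1si IFNγ. All 4 groups were apart, and within each the replicates lay close together. IFNγ raised PSMB8 there by a log2 fold change of 2.34 ± 0.04 with Cnsi (adjusted p 7.26e-33) and of 2.44 ± 0.04 with PD-L1si (adjusted p 2.62e-33).

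PSME1 encodes the alpha subunit of the activator ring that binds the ends of the barrel. Its levels with the A498 label were 95.1, 95.2 and 91.3 CPM in Cnsi, 330.3, 348 and 328 CPM in Cnsi IFNγ, 80.4, 86.9 and 78.7 CPM in PD-L1si, and 302, 306 and 311 CPM in PD-L1si IFNγ. No groups overlapped. In libraries labelled 786-O PSME1 stood at 112, 109 and 108 CPM in Cnsi, 389, 362 and 357 CPM in Cnsi IFNγ, 110.4, 119 and 110.2 CPM in PD-L1si, and 333, 327 and 362 CPM in PD-L1si IFNγ. The siRNA groups overlapped in that line both without and under IFNγ, and the libraries with IFNγ were all above those without. The log2 rise of PSME1 in A498 was 1.84 ± 0.04 with Cnsi (adjusted p 4.55e-29) and 1.90 ± 0.04 with PD-L1si (adjusted p 2.09e-29). The 786-O values were 1.75 ± 0.05 (adjusted p 7.40e-20) and 1.59 ± 0.05 (adjusted p 6.64e-19).

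PSME2 encodes the beta subunit of that ring. With the A498 label its levels were 43.2, 42.6 and 41.2 CPM in Cnsi, 238, 249 and 241 CPM in Cnsi IFNγ, 29.3, 31.9 and 31.1 CPM in PD-L1si, and 192, 195 and 193 CPM in PD-L1si IFNγ. In libraries labelled 786-O they were 98.3, 98.0 and 97.0 CPM in Cnsi, 471, 429 and 437 CPM in Cnsi IFNγ, 92.6, 96.0 and 89.4 CPM in PD-L1si, and 387, 379 and 404 CPM in PD-L1si IFNγ. The 4 groups were apart in both lines, with PD-L1si under Cnsi at either IFNγ state. The log2 rise with IFNγ was 2.52 ± 0.04 with Cnsi (adjusted p 5.08e-33) and 2.65 ± 0.05 with PD-L1si (adjusted p 2.77e-33) in A498. It was 2.19 ± 0.05 (adjusted p 1.94e-22) and 2.07 ± 0.05 (adjusted p 6.12e-22) in 786-O. PSME2P1 and PSME2P2, pseudogenes named after their values were seen, were also called higher with IFNγ in both lines, and near-copies of this kind leave the assignment of some reads uncertain.

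**Figure D1:**
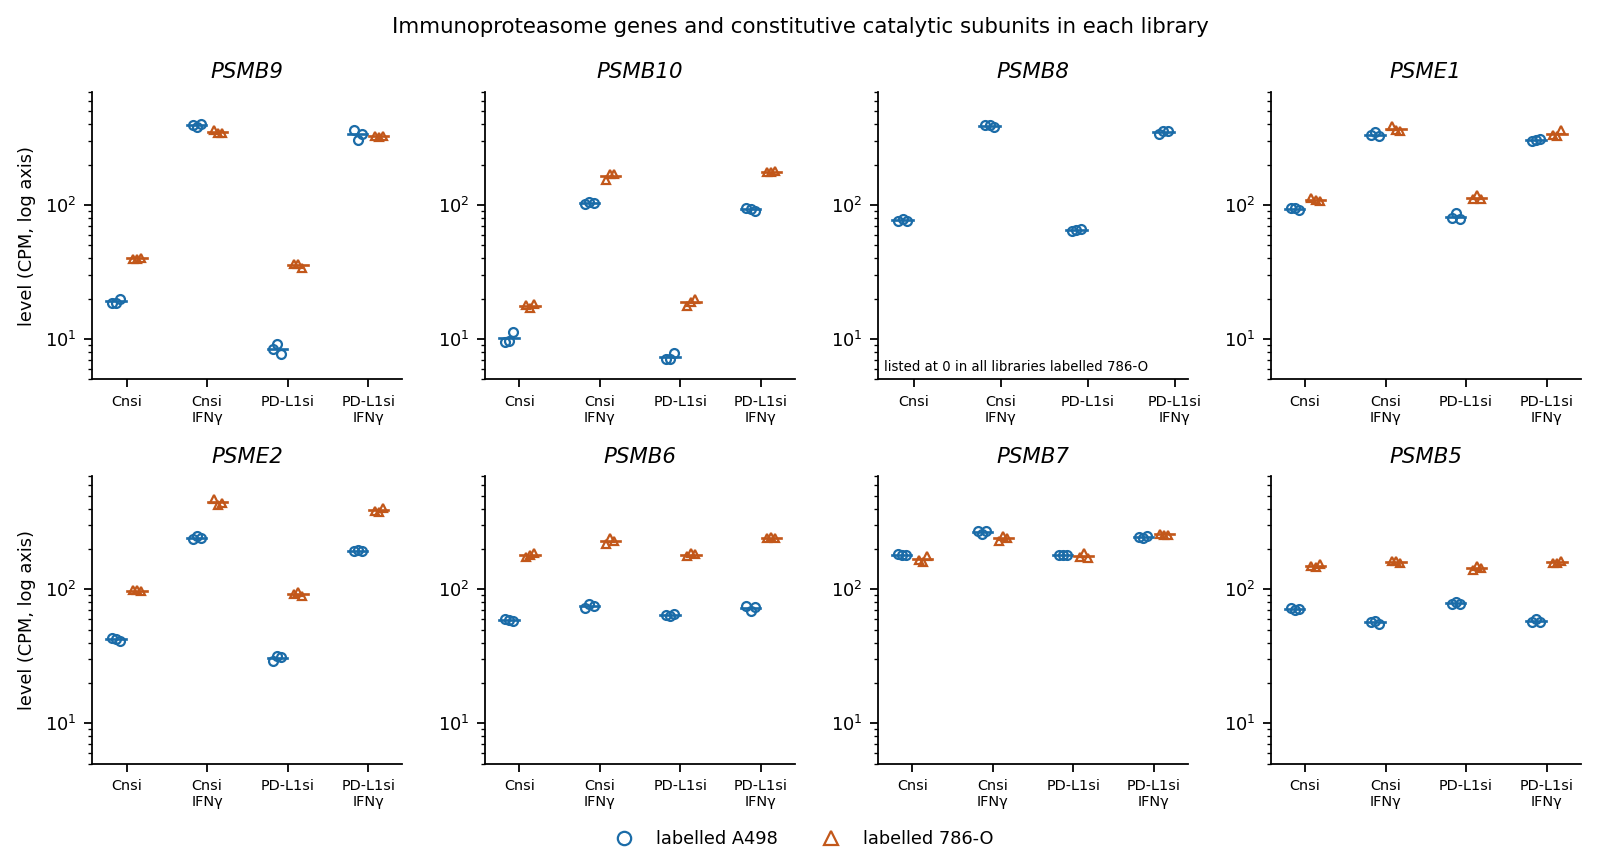
Level of the 5 immunoproteasome genes and of PSMB6, PSMB7 and PSMB5 in each library (CPM, TMM-scaled, log axis) by group, with circles for libraries labelled A498, triangles for those labelled 786-O and bars for group means of 3 libraries. PSMB9 goes from 18.7 to 20.0 CPM in Cnsi to between 379 and 401 CPM in Cnsi IFNγ with the A498 label, while PSMB5 goes from between 70.3 and 72.5 CPM to between 55.5 and 58.1 CPM.

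The constitutive catalytic subunits are PSMB6 (ENSG00000142507.10, chr17:4796144-4798502, plus strand), PSMB7 (ENSG00000136930.13, chr9:124353465-124415444, minus strand) and PSMB5 (ENSG00000100804.19, chr14:23016543-23035230, minus strand). PSMB6 carries the site that cuts after acidic residues. With the A498 label it stood at 59.8, 58.7 and 58.4 CPM in Cnsi, 73.0, 77.6 and 75.0 CPM in Cnsi IFNγ, 63.9, 62.8 and 65.1 CPM in PD-L1si, and 75.0, 69.2 and 73.8 CPM in PD-L1si IFNγ. Its levels with the 786-O label were 174, 179.6 and 188 CPM in Cnsi, 216, 243 and 229.5 CPM in Cnsi IFNγ, 176, 185 and 182 CPM in PD-L1si, and 239.9, 247 and 240.1 CPM in PD-L1si IFNγ. Libraries with IFNγ were above those without in both lines, and the siRNA groups under IFNγ overlapped. PSMB6 was not called in any IFNγ comparison: its log2 fold change was 0.35 ± 0.05 with Cnsi in A498 (adjusted p 2.22e-08), 0.19 ± 0.05 with PD-L1si in A498 (adjusted p 0.000625), 0.35 ± 0.05 with Cnsi in 786-O (adjusted p 1.59e-06) and 0.42 ± 0.05 with PD-L1si in 786-O (adjusted p 8.04e-08). With library totals as the only scaling these values were 0.21, 0.04 (adjusted p 0.446), 0.22 and 0.28.

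PSMB7 carries the site that cuts after basic residues. Its levels with the A498 label were 184, 181 and 180.3 CPM in Cnsi, 270.4, 259 and 270.2 CPM in Cnsi IFNγ, 179, 179.9 and 181 CPM in PD-L1si, and 244, 240.3 and 249 CPM in PD-L1si IFNγ. The 786-O libraries gave 166, 161 and 177 CPM in Cnsi, 229, 248 and 243 CPM in Cnsi IFNγ, 173, 186 and 173 CPM in PD-L1si, and 260.0, 256 and 254 CPM in PD-L1si IFNγ. The siRNA groups overlapped without IFNγ and were apart under IFNγ, PD-L1si lower in A498 and higher in 786-O. PSMB7 was called higher with IFNγ in Cnsi of both lines, at 0.55 ± 0.04 for A498 (adjusted p 4.41e-15) and 0.52 ± 0.05 for 786-O (adjusted p 2.50e-09), and in PD-L1si of 786-O at 0.53 ± 0.05 (adjusted p 1.49e-09). In PD-L1si of A498 the log2 fold change was 0.44 ± 0.04 (adjusted p 2.29e-12), under the threshold, and with library totals as the only scaling none of the 4 values reached 0.5.

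PSMB5 carries the site that cuts after hydrophobic residues. With the A498 label it stood at 72.5, 70.3 and 71.3 CPM in Cnsi, 57.4, 58.1 and 55.5 CPM in Cnsi IFNγ, 77.8, 80.6 and 77.4 CPM in PD-L1si, and 56.6, 60.4 and 56.7 CPM in PD-L1si IFNγ. Every library with IFNγ was below every library without it in that line. With the 786-O label PSMB5 stood at 150.0, 147 and 155 CPM in Cnsi, 163, 164 and 156 CPM in Cnsi IFNγ, 139.5, 149.8 and 143 CPM in PD-L1si, and 157, 158 and 162 CPM in PD-L1si IFNγ. There the libraries with IFNγ were above those without, by a margin smaller than the range within a group. The log2 fold change with IFNγ was -0.32 ± 0.05 with Cnsi (adjusted p 1.11e-07) and -0.44 ± 0.05 with PD-L1si (adjusted p 1.37e-10) in A498, both short of a call, and the latter is called at -0.58 with library totals as the only scaling. In 786-O it was 0.10 ± 0.05 with Cnsi (adjusted p 0.0925), which turns to -0.035 with library totals as the only scaling, and 0.14 ± 0.05 with PD-L1si (adjusted p 0.0136), which falls to 0.0031 (adjusted p 0.967).

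Levels of an immune subunit and its constitutive counterpart can be set side by side only per length. Counts per base of the canonical transcript were used, and the share of the immune subunit in the sum of the pair is given as a description with no test (mean ± SD, n = 3). For PSMB9 with PSMB6 in the libraries labelled A498 the share was 20.8% ± 0.805 in Cnsi, 80.9% ± 0.915 in Cnsi IFNγ, 9.66% ± 0.847 in PD-L1si and 78.9% ± 0.713 in PD-L1si IFNγ. The same pair gave, with the 786-O label, 15.3% ± 0.380, 55.3% ± 2.04, 13.7% ± 0.565 and 52.1% ± 0.636 in that order of groups. The share depends on the length taken. Per base of all annotated exons the PSMB9 share was 69.3% in Cnsi IFNγ and 66.7% in PD-L1si IFNγ of A498, but 39.9% and 36.8% in 786-O, where PSMB9 then no longer outnumbers PSMB6.

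For PSMB10 with PSMB7 the share with the A498 label was 5.32% ± 0.519 in Cnsi, 28.0% ± 0.788 in Cnsi IFNγ, 3.94% ± 0.183 in PD-L1si and 27.7% ± 0.696 in PD-L1si IFNγ. In 786-O it was 9.58% ± 0.213, 40.9% ± 0.576, 9.66% ± 0.693 and 41.0% ± 0.605. PSMB10 stayed below PSMB7 per length in all 24 libraries. For PSMB8 with PSMB5, measured with the A498 label only, the share was 50.0% ± 0.718 in Cnsi, 86.4% ± 0.0899 in Cnsi IFNγ, 43.4% ± 0.692 in PD-L1si and 85.0% ± 0.430 in PD-L1si IFNγ. Per base of all annotated exons these values were 32.4%, 75.2%, 26.9% and 73.0%. This pair had the highest immune share of the 3 pairs before IFNγ.

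**Figure D2:**
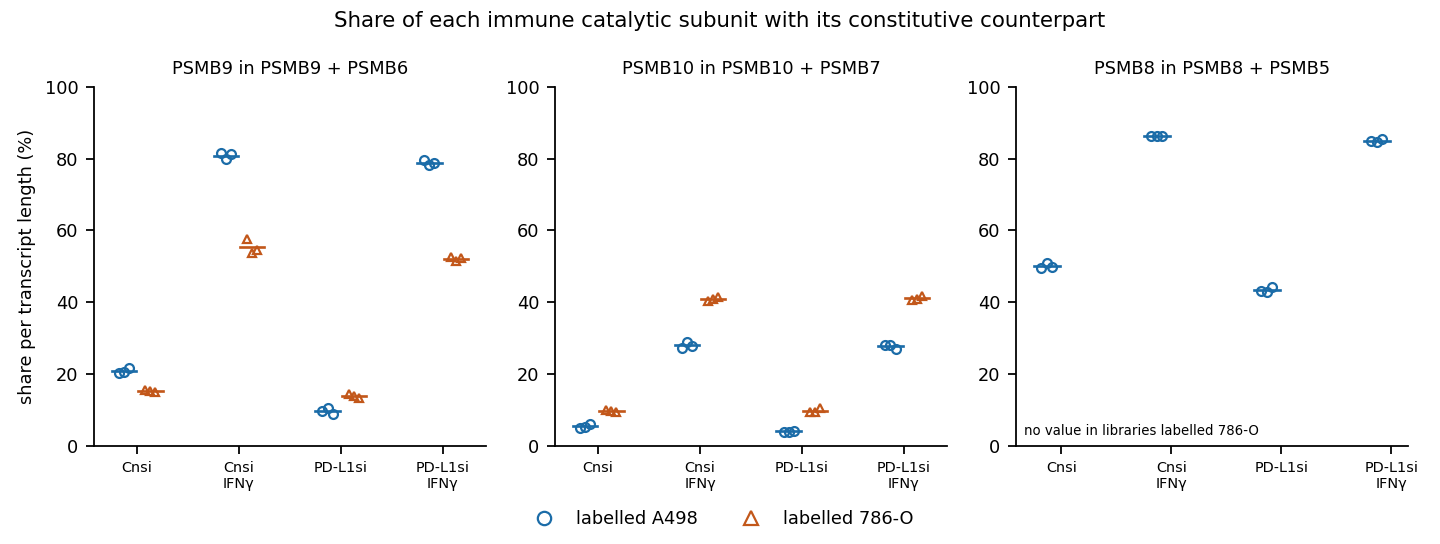
Share of each immune catalytic subunit in its sum with the constitutive counterpart (percent, counts per base of the canonical transcript), with a point for each library and the groups on the horizontal axis. The PSMB9 share in Cnsi is 20.8% for A498 and 15.3% for 786-O, and in Cnsi IFNγ 80.9% and 55.3%, while the PSMB10 share reaches 28.0% and 40.9%.

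Of all counts assigned to the members, not per length, the immunoproteasome genes took 5.89% ± 0.0844 (SD, n = 3) in Cnsi and 23.6% ± 0.0862 in Cnsi IFNγ with the A498 label. With PD-L1si these shares were 4.94% ± 0.0940 and 22.7% ± 0.445. In 786-O, where PSMB8 is listed at 0, they were 4.84% ± 0.122 and 15.6% ± 0.246 with Cnsi, and 5.03% ± 0.0927 and 15.5% ± 0.254 with PD-L1si. The summed level of the other members was 3876 CPM in Cnsi and 4742 CPM in Cnsi IFNγ with the A498 label, and 5212 and 7221 CPM with the 786-O label.

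The effect of IFNγ was asked in each line and under each siRNA. Of 20916 genes tested with the A498 label, 18.2% were called higher and 18.5% lower with IFNγ in Cnsi, while in PD-L1si 17.6% were called higher and 15.9% lower. Of 21209 genes tested with the 786-O label, 11.1% were called higher and 7.39% lower in Cnsi, and 11.0% higher and 7.45% lower in PD-L1si. Against these backgrounds all 5 immunoproteasome genes tested in A498 and all 4 tested in 786-O were called higher under both siRNAs.

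Of the 44 other members tested with the A498 label, 9 were called higher and 1 lower in Cnsi, and 7 were called higher and 0 lower in PD-L1si. For 786-O, 14 of 39 were called higher in Cnsi and 11 of 39 in PD-L1si, and 0 lower. These calls are edgeR's. DESeq2 called 9 and 7 higher in A498 and 13 and 11 higher in 786-O, and 0 lower in each. Of 20916 genes in A498 DESeq2 called 3646 higher with Cnsi and 3380 with PD-L1si. At an unadjusted p under 0.05 edgeR counted 34 and 36 of the 44 in A498 and 33 and 31 of the 39 in 786-O, in either direction. Over all genes tested that share was 64.3% and 61.8% in A498, and 45.7% and 45.6% in 786-O. The median log2 fold change of the immunoproteasome genes was 2.52 with Cnsi and 2.65 with PD-L1si in A498, and 2.66 and 2.63 in 786-O. That of the other members was 0.18 and 0.18 in A498, and 0.35 and 0.35 in 786-O. Over all genes tested it was -0.03 and -0.02 in A498, and 0.00 in both comparisons of 786-O. The share of other members called higher was thus near the background in A498 and above it in 786-O. With library totals as the only scaling 9 and 7 of the 39 were called in 786-O, where 8.64% and 8.45% of all genes were then called higher, and 7 and 8 of the 44 in A498 in either direction, against 39.2% and 35.7% of all genes.

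Scaling matters for the smaller changes. With library totals as the only scaling, the median of all genes was -0.17 with Cnsi and -0.17 with PD-L1si for A498, and -0.13 and -0.14 for 786-O. The split of called genes then moved from 3817 higher and 3871 lower to 2997 and 5193 in Cnsi of A498, and from 3675 and 3333 to 2819 and 4654 in PD-L1si of A498. In 786-O it moved from 2347 and 1567 to 1832 and 2523 with Cnsi, and from 2332 and 1580 to 1793 and 2581 with PD-L1si. The immunoproteasome medians under that scaling were 2.38 and 2.51 in A498 and 2.53 and 2.49 in 786-O. Those of the other members fell to 0.04 and 0.04 in A498 and to 0.22 and 0.21 in 786-O. Named members that lost their call were PSMA6 (0.45), PSMB7 (0.41) and PSME3IP1 (0.40) in Cnsi of A498 and PSMG3 (0.45) in PD-L1si of A498. In 786-O they were PSMB4 (0.48), PSMG2 (0.43), PSMF1 (0.39), PSMB7 (0.38) and PSMC4 (0.37) with Cnsi, and PSMB4 (0.48), PSMB2 (0.45), PSMA6 (0.40) and PSMB7 (0.39) with PD-L1si.

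**Figure D3:**
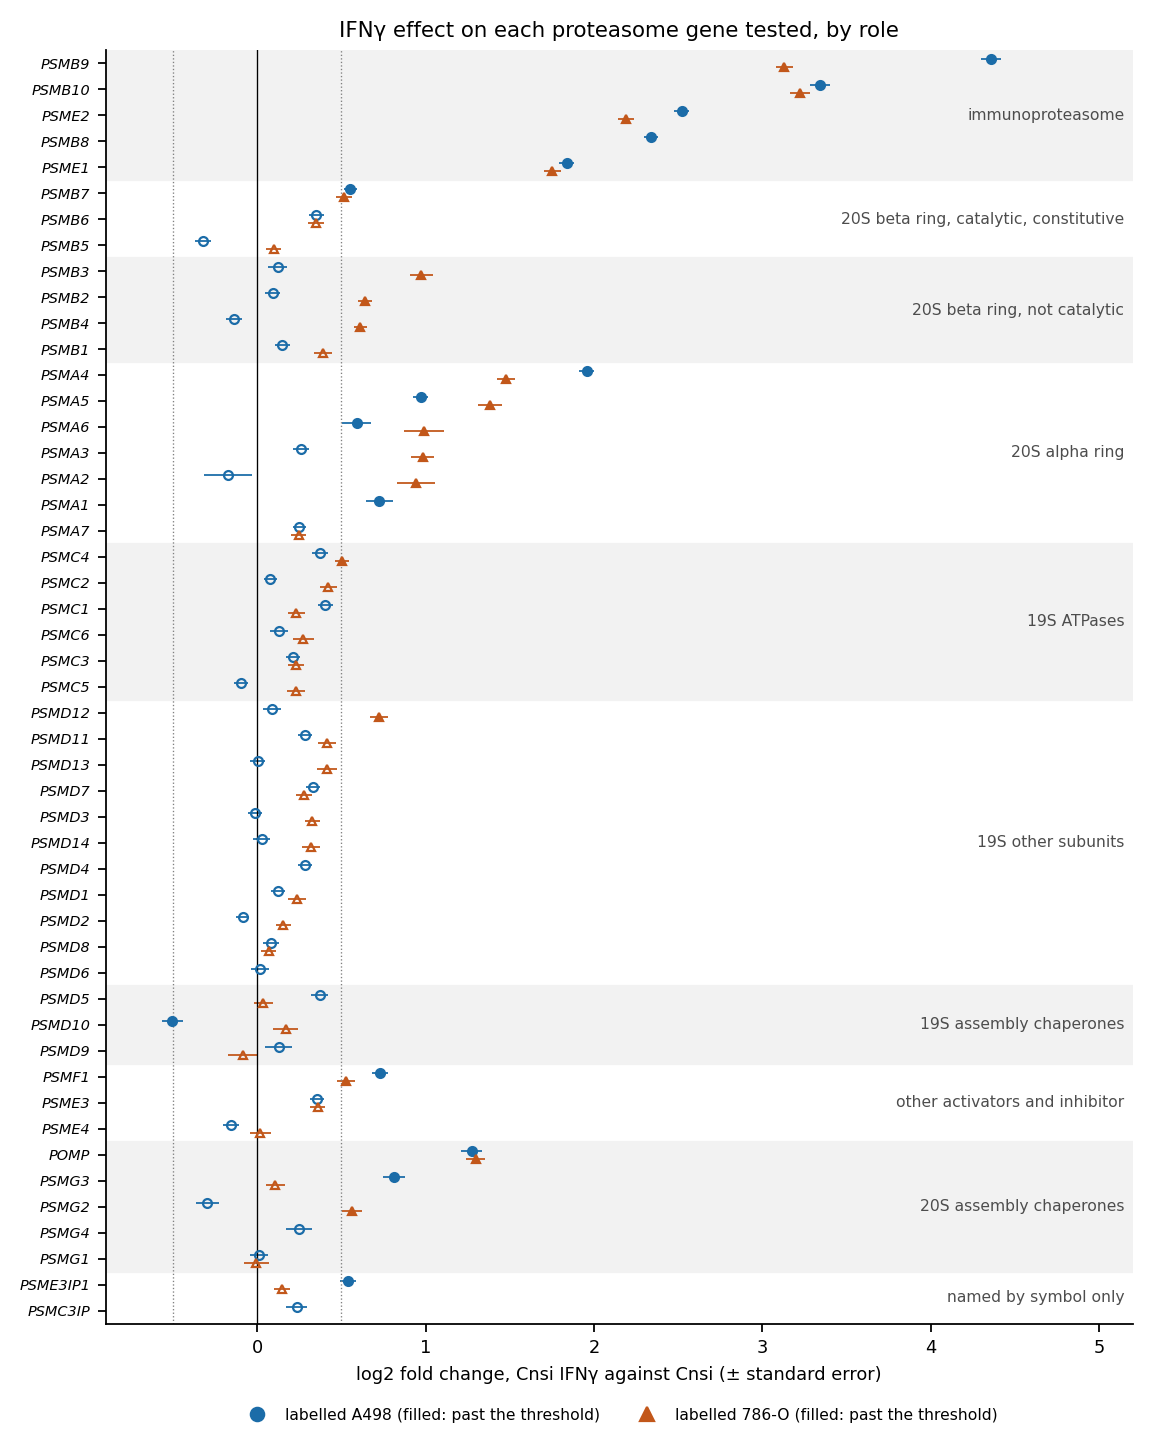
Log2 fold change with IFNγ in Cnsi for each tested member, grouped by role, with bars for the standard error and filled points for members past the threshold; circles are A498, triangles 786-O, and dotted lines mark 0.5 in either direction. The immunoproteasome genes lie between 1.84 and 4.36 in A498 and between 1.75 and 3.23 in 786-O, while the other members lie between -0.50 and 1.96 in A498 and between -0.09 and 1.48 in 786-O.

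Among the other members PSMA4 had the largest change with IFNγ in every comparison. PSMA4 (ENSG00000041357.16, chr15:78540405-78552417, plus strand), a subunit of the alpha ring of the barrel, stood at 92.3, 92.0 and 88.0 CPM in Cnsi and 358, 352 and 347 CPM in Cnsi IFNγ with the A498 label, and at 80.2, 79.5 and 81.2 CPM in PD-L1si and 275, 314 and 293 CPM in PD-L1si IFNγ. With the 786-O label it stood at 121, 117 and 115 CPM in Cnsi, 354, 316 and 312 CPM in Cnsi IFNγ, 107, 112 and 108 CPM in PD-L1si, and 282, 262 and 299 CPM in PD-L1si IFNγ. None of the groups overlapped within a line. Its log2 rise in A498, 1.96 ± 0.04 with Cnsi (adjusted p 1.99e-29) and 1.87 ± 0.05 with PD-L1si (adjusted p 1.06e-28), was close in size to that of PSME1. In 786-O the rise was 1.48 ± 0.06 (adjusted p 1.34e-17) and 1.36 ± 0.06 (adjusted p 7.59e-17). PSMA4 is also the other member whose window holds the GAAANNGAAA match farthest from a start.

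In Cnsi of A498, 4 of the 7 tested alpha ring genes were called higher: after PSMA4 came PSMA5 at 0.97, PSMA1 at 0.72 and PSMA6 at 0.59 on the log2 scale. In PD-L1si of A498 the same ring gave 4 of 7, with PSMA5 at 0.94, PSMA1 at 0.78 and PSMA6 at 0.69. In 786-O 5 of 6 alpha genes were called in both comparisons. After PSMA4 their values with Cnsi were 1.38 for PSMA5, 0.99 for PSMA6, 0.98 for PSMA3 and 0.94 for PSMA2, and with PD-L1si 1.26 for PSMA5, 1.04 for PSMA2, 0.96 for PSMA3 and 0.54 for PSMA6. PSMA7 was the alpha gene not called there, at 0.25 and 0.27. Of all genes 18.2% and 17.6% were called higher in A498, and 11.1% and 11.0% in 786-O. With library totals as the only scaling PSMA6 was not called in Cnsi of A498 or in PD-L1si of 786-O. That leaves 3 of 7 and 4 of 6, against 14.3% and 8.45% of all genes called higher. Some alpha genes share exon bases with another gene on their strand (26.7% of PSMA1, 17.2% of PSMA2 and 14.1% of PSMA6), and PSMA2 was low, with a mean of 4.44 CPM in Cnsi of A498 and 5.98 CPM in Cnsi of 786-O.

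The beta subunits without a catalytic site gave 0 of 4 calls with the A498 label in both IFNγ comparisons by edgeR, with 4 and 3 of the 4 at an unadjusted p under 0.05, and DESeq2 called none of them either. In 786-O 3 of 4 were called: PSMB3 at 0.97, PSMB2 at 0.64 and PSMB4 at 0.61 with Cnsi, and PSMB3 at 0.74, PSMB4 at 0.62 and PSMB2 at 0.59 with PD-L1si. PSMB1 stood at 0.39 and 0.38 there. Of all genes 18.2% and 17.6% were called higher in A498, and 11.1% and 11.0% in 786-O. In A498 64.3% and 61.8% of all genes had an unadjusted p under 0.05. With library totals as the only scaling PSMB4 with either siRNA and PSMB2 with PD-L1si were not called in 786-O. That leaves 2 of 4 and 1 of 4, against 8.64% and 8.45% of all genes.

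Genes of the regulatory cap can be read against the 18.2% and 17.6% of all genes called higher in A498, the 64.3% and 61.8% at an unadjusted p under 0.05 there, and the 11.1% and 11.0% called higher in 786-O. Its 6 ATPases, which unfold the substrate, gave 0 calls in A498 by edgeR and DESeq2, with 5 of 6 at an unadjusted p under 0.05 in Cnsi and 4 of 6 in PD-L1si. In 786-O PSMC4 was called with Cnsi at 0.50, a call DESeq2 did not make. With PD-L1si 0 of 6 were called, and all 6 had an unadjusted p under 0.05 (45.6% of all genes). The 11 further cap subunits, which bind ubiquitin chains, remove them or hold the cap together, gave 0 calls in A498 by both tools, with 5 and 8 of 11 at an unadjusted p under 0.05. Of the 9 tested in 786-O only PSMD12, a scaffold subunit of the lid, was called, at 0.72 with Cnsi and 0.74 with PD-L1si. Without a fold threshold 6 of 6 ATPases and 8 of 9 further subunits were higher in 786-O with Cnsi at an adjusted p under 0.05. With PD-L1si these counts were 5 of 6 and 8 of 9, and the shares of all genes were 21.7% and 22.2%. With library totals as the only scaling 2 of 6 and 6 of 9 were higher with Cnsi. With PD-L1si 4 of 6 and 6 of 9 were then higher, and 1 further subunit was lower. Of all 21209 genes 9035 and 9119 then had an adjusted p under 0.05, in either direction.

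Of the 3 chaperones that assemble the cap, PSMD10 was called lower with IFNγ in Cnsi of A498, at -0.50 ± 0.06 (adjusted p 4.18e-09). That value lies at the threshold: DESeq2 gave -0.49, library totals as the only scaling gave -0.64 (adjusted p 1.36e-11), and leaving out a library gave -0.47 to -0.55. The call was lost without Cnsi replicate 1 or 2, Cnsi IFNγ replicate 1 or 3, PD-L1si replicate 1, 2 or 3, or PD-L1si IFNγ replicate 1. With PD-L1si it was -0.48 ± 0.06 (adjusted p 1.31e-08), not called, and -0.62 with a call under library totals. PSMD9 had the lowest value of the other members in 786-O, at -0.09 with Cnsi and -0.04 with PD-L1si, with neither called.

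POMP (ENSG00000132963.8, chr13:28659065-28678959, plus strand) encodes the chaperone that completes assembly of the barrel. With the A498 label it stood at 60.9, 59.5 and 53.3 CPM in Cnsi, 134, 149 and 137 CPM in Cnsi IFNγ, 51.1, 55.9 and 50.4 CPM in PD-L1si, and 110.5, 136 and 119 CPM in PD-L1si IFNγ. Its levels with the 786-O label were 96.5, 96.7 and 96.3 CPM in Cnsi, 254, 229.7 and 227 CPM in Cnsi IFNγ, 84.8, 92.5 and 85.9 CPM in PD-L1si, and 204, 191 and 221 CPM in PD-L1si IFNγ. All libraries with IFNγ were above all those without, in both lines. The log2 rise was 1.27 ± 0.06 with Cnsi (adjusted p 9.10e-15) and 1.22 ± 0.07 with PD-L1si (adjusted p 3.67e-14) in A498. For 786-O it was 1.30 ± 0.06 with Cnsi (adjusted p 3.08e-16) and 1.23 ± 0.06 with PD-L1si (adjusted p 1.14e-15). PSMG3, another barrel chaperone, was called in A498 at 0.81 with Cnsi and 0.59 with PD-L1si. PSMG2 was called in 786-O with Cnsi at 0.56. PSMG4, whose window holds the GAAAGCGAAA letters, stood at 0.25 and 0.26 in A498, with no call.

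PSME3 (ENSG00000131467.11, chr17:42824385-42843760, plus strand) encodes a nuclear activator ring related to PSME1 and PSME2. It stood at 105, 106 and 98.3 CPM in Cnsi and 134, 132 and 129 CPM in Cnsi IFNγ with the A498 label, and at 222, 215 and 234 CPM and 288, 288 and 282 CPM with the 786-O label. Libraries with and without IFNγ did not overlap, yet the log2 fold change of 0.36 ± 0.04 in A498 (adjusted p 4.83e-09) and 0.36 ± 0.05 in 786-O (adjusted p 6.19e-07) was under the threshold. With PD-L1si it was 0.40 ± 0.04 in A498 (adjusted p 3.28e-10) and 0.32 ± 0.05 in 786-O (adjusted p 3.74e-06), again not called. With library totals as the only scaling PSME3 was at 0.22 with Cnsi and 0.26 with PD-L1si in A498. In 786-O it was then at 0.23 and 0.18. PSMF1, an inhibitor of the barrel, was called higher at 0.73 with Cnsi and 0.81 with PD-L1si in A498, and at 0.53 with Cnsi in 786-O. PSME3IP1, a PSME3-binding protein, was called in Cnsi of A498 at 0.54.

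Whether the siRNA against CD274 changed the members was asked without and under IFNγ, and these comparisons share their libraries with the IFNγ comparisons. Without IFNγ, 8.48% of genes tested with the A498 label were called in either direction. PSMB9 was called lower there, at -1.19 ± 0.08 (adjusted p 1.38e-14), and it was lower in 3 of 3 libraries than in any Cnsi library. The remaining 4 immunoproteasome genes were not called: PSMB10 stood at -0.47 ± 0.08 (adjusted p 1.96e-05), PSME2 at -0.46 ± 0.05 (adjusted p 1.44e-09), PSMB8 at -0.24 ± 0.04 (adjusted p 2.13e-05) and PSME1 at -0.20 ± 0.04 (adjusted p 0.000622). All 5 values are negative at an adjusted p under 0.05 with TMM scaling, as were those of 18.1% of all genes tested. By edgeR 0 of 44 other members were called, 17 had an unadjusted p under 0.05 (39.2% of all genes), and DESeq2 called 0. Their values ran from -0.35 for PSMC1 to 0.14 for PSMB5.

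Under IFNγ, 10.1% of genes tested with the A498 label were called in either direction. None of the 5 immunoproteasome genes was called by edgeR or DESeq2, while all 5 had an unadjusted p under 0.05. The log2 differences were -0.33 ± 0.04 for PSME2 (adjusted p 2.17e-08), -0.22 ± 0.05 for PSMB9 (adjusted p 0.000198), -0.15 ± 0.05 for PSMB10 (adjusted p 0.00995), -0.14 ± 0.04 for PSMB8 (adjusted p 0.00339) and -0.13 ± 0.04 for PSME1 (adjusted p 0.0111). A lower level at an adjusted p under 0.05 was found for 17.8% of all genes tested. Of the other members edgeR called 0 of 44, 26 had an unadjusted p under 0.05 (41.7% of all genes), and DESeq2 called 0, with values from -0.35 for PSMD2 to 0.49 ± 0.14 for PSMA2.

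These small siRNA differences depend on scaling. With library totals as the only scaling the median of all genes was 0.10 without and 0.11 under IFNγ in A498. The split of called genes moved from 601 higher and 1172 lower to 1046 and 825 without IFNγ, and from 911 and 1202 to 1505 and 826 under IFNγ. PSMB9 without IFNγ was -1.08 under that scaling and kept its call, while PSME1 went to -0.09 (adjusted p 0.104), so 4 of the 5 genes then had an adjusted p under 0.05. Under IFNγ the immunoproteasome values were then -0.23 for PSME2, -0.12 for PSMB9, -0.05 for PSMB10 (adjusted p 0.463), -0.04 for PSMB8 (adjusted p 0.448) and -0.03 for PSME1 (adjusted p 0.623). The median of the other members, -0.03 without and -0.09 under IFNγ, turned to 0.08 and 0.01 with library totals, while that of the immunoproteasome genes went from -0.46 to -0.36 and from -0.15 to -0.05.

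With the 786-O label, 2.81% of genes were called in either direction without IFNγ and 3.03% under IFNγ. Without IFNγ edgeR called 0 of 4 immunoproteasome genes and 0 of 39 other members, with 1 and 15 at an unadjusted p under 0.05 (24.7% of all genes), and DESeq2 called 0 of both. PSMB9 stood at -0.17 ± 0.05 (adjusted p 0.0228), and the other members ran from -0.26 for PSMD11 to 0.25 for PSMA6. With library totals as the only scaling PSMB9 was at -0.15 (adjusted p 0.0545). Under IFNγ edgeR called 0 and 0, with 3 and 17 at an unadjusted p under 0.05 (26.2% of all genes), and DESeq2 called 0 and 0. PSME2 stood at -0.19 ± 0.05 (adjusted p 0.00534), PSMB9 at -0.11 ± 0.04 (adjusted p 0.108), PSMB10 at 0.10 ± 0.05 (adjusted p 0.21) and PSME1 at -0.12 ± 0.05 (adjusted p 0.132). The other members ran from -0.25 for PSMA5 to 0.11 for PSMA2. CD274 was lowered by less in that line, so the siRNA groups differ in the depth of the knockdown as well.

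**Figure D4:**
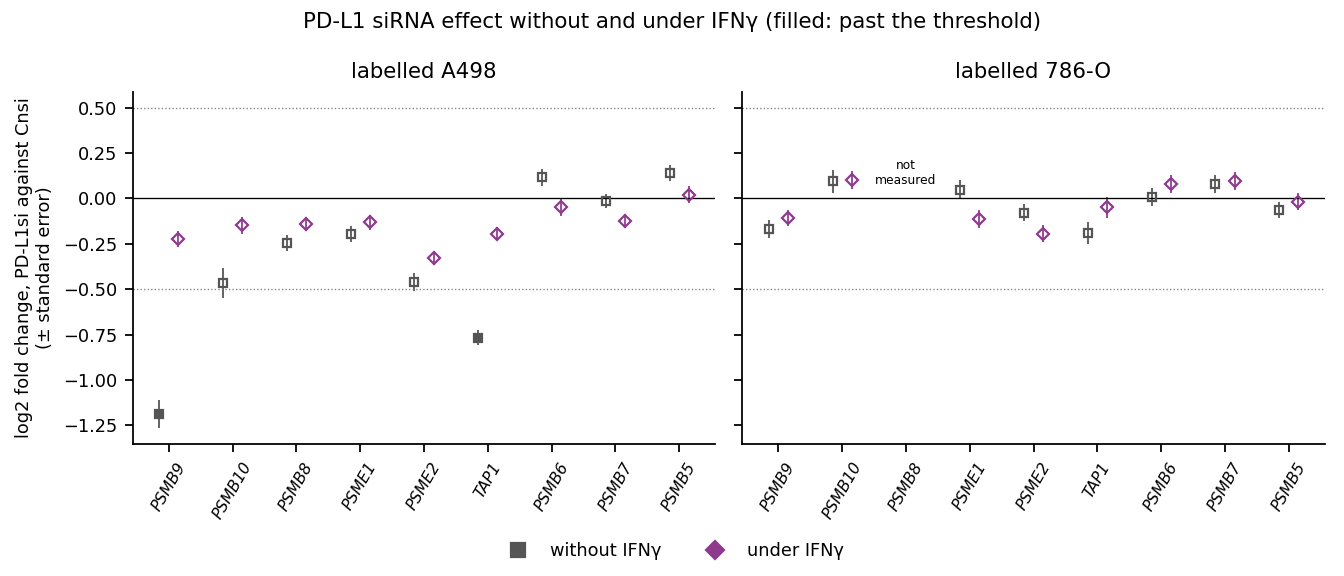
Log2 fold change of PD-L1si against Cnsi, without IFNγ and under IFNγ, for the immunoproteasome genes, TAP1, PSMB6, PSMB7 and PSMB5 in both lines, with bars for the standard error. PSMB9 in A498 is at -1.19 without IFNγ and at -0.22 under IFNγ, and in 786-O at -0.17 and -0.11.

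The interaction asks whether the IFNγ effect differed between the siRNAs. In A498 2.45% of genes were called in either direction, among them PSMB9 at 0.96 ± 0.09 (adjusted p 1.75e-09). PSMB10 followed at 0.32 ± 0.09 (adjusted p 0.0249), not called, then PSME2 at 0.13 ± 0.06 (adjusted p 0.205), PSMB8 at 0.10 ± 0.06 (adjusted p 0.306) and PSME1 at 0.07 ± 0.06 (adjusted p 0.586). The PSMB9 value reflects levels of 8.43 CPM in PD-L1si and 19.1 CPM in Cnsi, group means of 3 libraries, against 336 and 392 CPM under IFNγ. Of the other members edgeR called 0 of 44, with 10 at an unadjusted p under 0.05 (21.4% of all genes) and 0 called by DESeq2, between -0.23 for PSMD2 and 0.35 for PSMA2. In 786-O 0.0990% of genes were called, and edgeR called 0 of 4 immunoproteasome genes and 0 of 39 other members. There 1 and 2 had an unadjusted p under 0.05 (8.12% of all genes), DESeq2 called 0 and 0, and PSMB9 stood at 0.06 ± 0.07 (adjusted p 0.86). The other members there ran from -0.45 for PSMA6 to 0.10 for PSMA2.

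The IFNγ effect was then compared between lines, as 786-O minus A498, over the 17999 genes that passed the filter in both. Each line was run on its own instrument, so base levels between lines cannot be told apart from the instrument and are not compared. In Cnsi 15.1% of genes were called higher in 786-O and 13.2% lower. PSMB9 was lower by this measure, at -1.23 ± 0.07 (adjusted p 3.73e-17), while PSMB10 at -0.12 ± 0.09 (adjusted p 0.251), PSME1 at -0.09 ± 0.07 (adjusted p 0.287) and PSME2 at -0.34 ± 0.06 (adjusted p 2.66e-05) were not called. Of 39 other members 8 were called higher and 1 lower. The higher ones were PSMA2 at 1.11, PSMG2 at 0.85, PSMB3 at 0.85, PSMB4 at 0.75, PSMA3 at 0.72, PSMD10 at 0.67, PSMD12 at 0.63 and PSMB2 at 0.54, and PSMG3 was lower at -0.71. DESeq2 called 7 higher, without PSMB2, and 2 lower, with PSMA4 at -0.53 beside PSMG3. POMP at 0.02 was not called.

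In PD-L1si 13.1% of genes were called higher in 786-O and 12.8% lower. PSMB9 at -2.13 ± 0.08 (adjusted p 2.01e-23) and PSME2 at -0.58 ± 0.07 (adjusted p 9.01e-10) were lower, and PSMB10 at -0.43 ± 0.09 (adjusted p 0.000109) and PSME1 at -0.32 ± 0.07 (adjusted p 0.00017) were not called. Of 39 other members 9 were called higher and 2 lower. PSMG3 at -0.57 and PSMA4 at -0.51 were the lower ones. PSMA2 at 0.86, PSMB3 at 0.81, PSMB4 at 0.72, PSMG2 at 0.66, PSMB5 at 0.58, PSMA3 at 0.57, PSMD10 at 0.55, PSMD3 at 0.53 and PSMD2 at 0.51 were the higher ones. DESeq2 called 8 of these 9 higher, without PSMD2, and the same 2 lower.

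**Figure D5:**
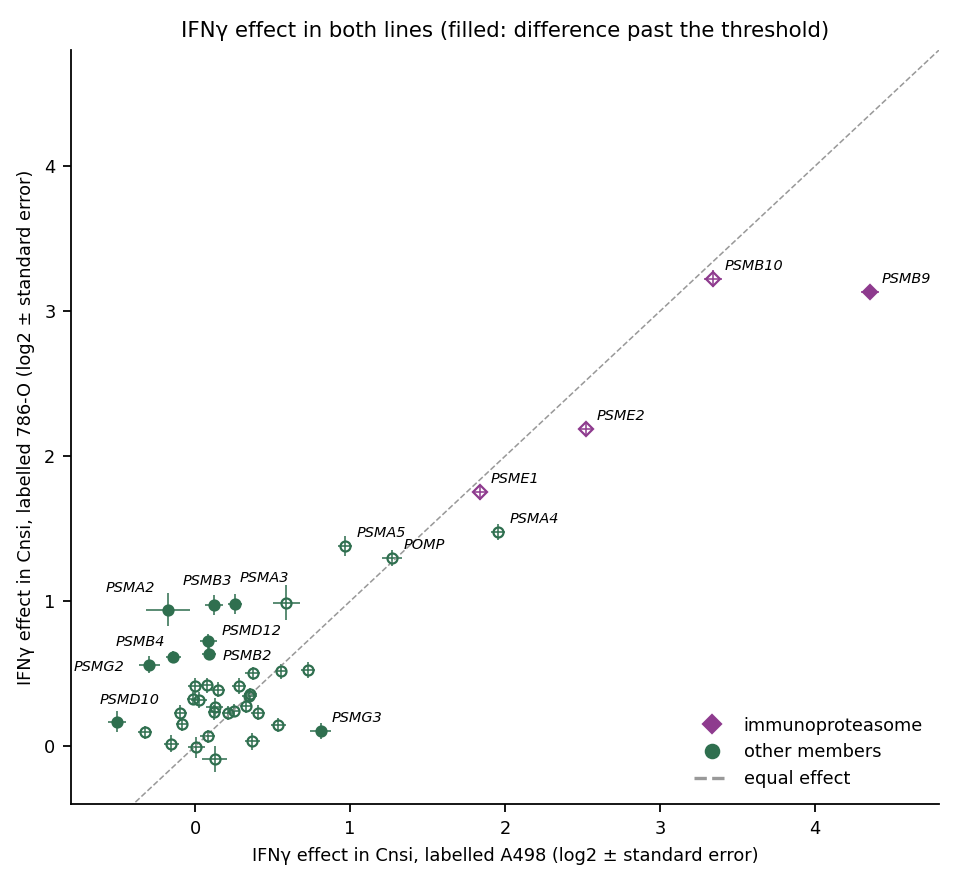
Log2 fold change with IFNγ in Cnsi for each member tested in both lines, A498 on the horizontal and 786-O on the vertical axis, with bars for standard errors, filled points where the difference between lines was called and a dashed line where both are equal. PSMB9 lies under the line at 4.36 and 3.13, while PSMB10 at 3.34 and 3.23 lies near it.

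Other genes of the pathway were followed from lists chosen with earlier results of these data known. Their counts therefore describe the listed genes and are not an independent test. The shares of all genes called higher with IFNγ were 18.2% and 17.6% in A498 and 11.1% and 11.0% in 786-O. Of 6 genes for peptide handling after the proteasome, 6 of 6 tested were called higher with IFNγ in both comparisons of A498 and 4 of 4 tested in both of 786-O. TAP1 had the largest value in each: 4.14 and 4.72 in A498, and 3.49 and 3.63 in 786-O. Its mean level in A498 went from 109 CPM in Cnsi to 1919 CPM in Cnsi IFNγ, and from 63.9 CPM to 1679 CPM with PD-L1si. The lowest value was that of ERAP2 in A498 (0.85 and 1.13) and of ERAP1 in 786-O (1.26 and 1.09), both peptide-trimming enzymes.

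IRF1, a transcription factor induced by IFNγ, rose by 4.62 and 5.28 in A498 and by 4.77 and 4.75 in 786-O. NGLY1, which deglycosylates the factor NFE2L1, stood at 0.18 and 0.18 in A498, and DDI2, which cleaves it, at 0.07 and 0.29 in 786-O, neither called. NFE2L1 itself was at 388.8, 411.4 and 411.9 CPM in Cnsi of A498 and at 821.2, 767.7 and 797.4 CPM in Cnsi IFNγ. It was called higher in both comparisons of A498 by DESeq2, and by edgeR with library totals as the only scaling. Neither run called it in 786-O. Among the proteasome-bound ubiquitin receptors, deubiquitinases and adaptors, 5 of 15 were called higher in Cnsi of A498 and 3 of 15 in PD-L1si, and none lower. The latter is near the share of all genes, and with library totals as the only scaling 1 of 15 was called higher and 1, SEM1, lower in both. Under that scaling 14.3% and 13.5% of all genes were called higher, and 24.8% and 22.3% lower. AKIRIN2, which mediates nuclear import of proteasomes, was highest at 0.72 and 0.79, and SEM1, a small lid subunit, lowest at -0.39 and -0.46 with no call by edgeR with TMM. In 786-O edgeR called 0 of 13 in both comparisons, between -0.28 for UBQLN4 and 0.40 for TXNL1 with Cnsi. At an unadjusted p under 0.05 it counted 10 and 12 of the 13, against 45.7% and 45.6% of all genes.

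Ubiquitin-like modifiers were called higher in 4 of 5 cases in both comparisons of A498 and in 5 of 5 of 786-O, where 4 of 5 were called with library totals as the only scaling. UBD, a modifier that marks proteins for degradation, had 3, 9 and 7 counts in Cnsi and 543, 705 and 538 counts in Cnsi IFNγ with the A498 label, and 0, 0 and 0 against 207, 208 and 200 counts with the 786-O label. Polyubiquitin UBB was the lowest in A498, at -0.36 with Cnsi and no call (-0.50 and a call with library totals), but was called higher in 786-O at 0.82, and the line difference was 1.17 ± 0.07 (adjusted p 4.50e-18).

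With PD-L1si without IFNγ in A498, 3 of 6 peptide-handling genes were called lower, TAP1 with the lowest value at -0.77 ± 0.04 (adjusted p 5.96e-17), as were IRF1 at -0.86 ± 0.05 (adjusted p 5.05e-17) and 2 of 5 modifiers, ISG15 and NUB1, against 5.60% of all genes. DESeq2 called 3 of 6 and 1 of 5, without NUB1. With library totals as the only scaling 2 of 6 and 1 of 5 were called lower, against 3.94% of all genes, with TAP1 and IRF1 among the calls. Under IFNγ TAP1 stood at -0.19 ± 0.04 (adjusted p 6.71e-05) and IRF1 at -0.20 ± 0.04 (adjusted p 3.83e-05), with no call for either. The interaction was called for TAP1 at 0.57 ± 0.06 (adjusted p 2.46e-09) and for IRF1 at 0.65 ± 0.06 (adjusted p 6.55e-10). Under IFNγ DESeq2 called 0 of the 6 peptide-handling genes. Its interaction was positive at an adjusted p under 0.05 for 6 of 6, against 1642 of 12806 genes in either direction. ISG15 was called lower without IFNγ (-1.02) and under it (-0.78), as was NFE2L1 (-0.60, not called with library totals, and -0.66). Their interactions were 0.24 (adjusted p 0.0479) and -0.06 (adjusted p 0.608), neither called. In 786-O TAP1 stood at -0.19 ± 0.06 without IFNγ (adjusted p 0.0393) and at -0.05 ± 0.06 under IFNγ (adjusted p 0.649). With library totals as the only scaling the value without IFNγ was -0.17, with an adjusted p not under 0.05. The IFNγ effect on TAP1 was smaller in 786-O than in A498, by -0.66 ± 0.07 with Cnsi (adjusted p 3.39e-10) and -1.09 ± 0.07 with PD-L1si (adjusted p 5.46e-16).

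Some limits bear on these values. The extraction protocol names 3 groups and leaves out PD-L1si without IFNγ, while the labels and the treatment protocol give 4. The names of the lines rest on the labels too and were not checked against another source. Values outside the proteasome genes, not given here, raise the question whether the names of the lines are exchanged. That was not tested here, so each value per line and each direction between lines holds for the labels only. An antisense gene, PSMB8-AS1, singled out after its values were seen, shares 5.21% of PSMB9 exon bases on the same strand and was itself called higher with IFNγ, at 3.85 with Cnsi in A498 and 3.04 in 786-O.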

How the data were processed

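Poly(A) RNA of 24 libraries was sequenced by the authors, who trimmed reads with Trimmomatic 0.36.6, aligned them to GRCh38 with HISAT2 2.1.0 and counted them per GENCODE gene with featureCounts 1.6.3. The values used here are the raw counts the authors deposited. No column lacked a sample. Symbols, positions, lengths and exon overlaps came from GENCODE 44, which matched 39148 genes and left 173 unmatched. The authors counted with an earlier GENCODE version, so overlaps and lengths may differ from those behind the counts.

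Each line was fitted alone with edgeR 4.0.16 in R 4.3.3, with a mean for each of 4 groups, TMM factors and the robust quasi-likelihood test (two-sided). Genes of all biotypes needed a summed count of at least 10 in the 3 libraries of a group. Line differences came from a model of all 24 libraries. Benjamini-Hochberg adjustment ran over all genes tested. The code was tested on simulated data. Tables and figures were made in Python 3.11.15 with pandas 2.3.3, numpy 2.4.6 and matplotlib 3.10.9.

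Genes were named by rule: the 5 immunoproteasome genes, PSMB5, PSMB6 and PSMB7, POMP and PSME3, up to 10 other members past the threshold per comparison and those at the ends of a range, the extremes of each pathway list and TAP1, and members listed at 0. Members and lists were chosen with earlier results of these data known. Some genes of the marker and pathway lists, and the counts and sums that need them, are not reported here, so for those lists single genes are given, picked with their values known.

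Alternatives were relative log expression factors, library totals, DESeq2 1.42.0, filterByExpr, no filter above a count of 0, protein-coding genes alone, other thresholds, only the groups compared in the model, no robust estimation, the replicate number as a block, and each library left out. The medians' alternatives and the use of all exon bases for shares were chosen after seeing the data. Counting intervals were not computed, and base levels were not compared between lines. Protein sequences were not used here.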

Additional observations from a re-analysis of the deposited data

Results flagged for a closer look

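Effects that differed between groups under the same contrast are listed here by the test of the difference itself, edgeR's quasi-likelihood test with the call threshold used throughout. Between siRNAs in the libraries labelled A498, the IFNγ effect on PSMB9 was larger with PD-L1si than with Cnsi, by 0.96 on the log2 scale. Of all genes tested there 2.45% were called in either direction.

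Between lines as labelled (786-O minus A498) the IFNγ effect in Cnsi was smaller in 786-O for PSMB9 (-1.23) and PSMG3 (-0.71). It was larger for PSMB2 (0.54, not called by DESeq2), PSMD12 (0.63), PSMD10 (0.67), PSMA3 (0.72), PSMB4 (0.75), PSMB3 (0.85), PSMG2 (0.85) and PSMA2 (1.11). DESeq2 also called PSMA4 smaller (-0.53). By edgeR 15.1% of all 17999 genes were called larger in 786-O and 13.2% smaller, and 43 members were among the genes tested.

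In PD-L1si the effect was smaller in 786-O for PSMB9 (-2.13), PSME2 (-0.58), PSMG3 (-0.57) and PSMA4 (-0.51). It was larger for PSMD2 (0.51, not called by DESeq2), PSMD3 (0.53), PSMD10 (0.55), PSMA3 (0.57), PSMB5 (0.58), PSMG2 (0.66), PSMB4 (0.72), PSMB3 (0.81) and PSMA2 (0.86). Of all 17999 genes 13.1% were called larger in 786-O and 12.8% smaller. Line differences were thus common among all genes, and these lists are not read as particular to the proteasome genes. The comparisons between lines share no libraries across siRNAs, but line and instrument cannot be told apart.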

How the results depend on the processing

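Of 132 log2 fold changes of named genes, 93 were called. Of these, 0 reversed and 19 lost the call under at least 1 alternative, 13 of them with library totals as the only scaling and 4 with DESeq2, and none with the replicate number as a block. Of the 23 calls on immunoproteasome genes 0 were lost in these runs, which keep the threshold of 0.5. Past a threshold of 1 the PSMB9 interaction in A498 (0.96) and the PSME2 line difference in PD-L1si (-0.58) would not be called. The only reversal was PSMB5 with IFNγ in Cnsi of 786-O, not called in either case: -0.035 with library totals only. The cause was not tested. Values near the threshold of 0.5 made up the lost calls, such as PSMD10 in Cnsi of A498, -0.49 with DESeq2. PSMB5 and PSMD10 with IFNγ in PD-L1si of A498 gained a call with library totals (-0.58 and -0.62).

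The number of other members called with IFNγ (10 and 7 in A498 for Cnsi and PD-L1si, 14 and 11 in 786-O) was the same with the replicate block. With an adjusted p under 0.05 and no fold threshold it was 32 and 31 in A498 and 31 and 30 in 786-O, against 61.3%, 58.5%, 38.8% and 38.5% of all genes. With a log2 fold change over 1 it was 2 and 2 in A498 and 3 and 4 in 786-O. The share of all genes past that threshold is not given, so these counts are not read as particular to the members. With library totals it was 7 and 8 in A498 and 9 and 7 in 786-O, against 39.2%, 35.7%, 20.5% and 20.6% of all genes, and leaving out a library gave 9 to 10, 7 to 9, 12 to 14 and 9 to 13.

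For the siRNA without a fold threshold, 5 immunoproteasome genes and 23 others passed under IFNγ in A498, 5 and 14 without IFNγ, and 2 and 2 in the interaction, against 34.1%, 30.8% and 9.08% of all genes. In 786-O 1 and 10 passed under IFNγ and 1 and 5 without, against 14.0% and 12.8%. With library totals as the only scaling 0 and 3 passed there without IFNγ, against 2667 of all 21209 genes. With a log2 fold change over 1, PSMB9 left the A498 interaction, leaving 0. Under IFNγ in A498 the count of other members called was 1 with library totals and 0 to 1 with a library left out: PSMA2 (0.49 with all libraries) was called without Cnsi IFNγ replicate 1, Cnsi IFNγ replicate 2, PD-L1si IFNγ replicate 1 or PD-L1si IFNγ replicate 3. Without IFNγ the immunoproteasome count was 1 to 2, since PSMB10 reached -0.52 without A498 Cnsi replicate 1. The looser and stricter thresholds change these counts by construction, and the cause of the rest was not tested.

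Shares per base of all annotated exons, chosen after seeing the data, were, with Cnsi (without IFNγ, then with it) and with PD-L1si (likewise), 12.3%, 69.3%, 5.41% and 66.7% for PSMB9 with PSMB6 in A498, and 8.78%, 39.9%, 7.85% and 36.8% in 786-O. For PSMB10 with PSMB7 they were 29.8%, 4.29% and 29.5% in the last 3 groups of A498, and 10.4%, 43.1%, 10.5% and 43.2% in 786-O. For PSMB8 with PSMB5 they were 32.4%, 75.2%, 26.9% and 73.0% in A498. With them the PSMB9 and PSMB8 shares fell and the PSMB10 shares rose.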
